A study of Mus musculus with 20 samples.

Results

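Core sites of the condensin II complex that also carried the RNA polymerase III factor TFIIIC in every library were examined in mouse embryonic fibroblasts by chromatin immunoprecipitation followed by sequencing (ChIP-seq). Peaks of the condensin II subunits CAP-D3 and CAP-H2 in both genotypes were merged on chromosomes 1 to 19 where they shared at least 1 bp, which gave 60899 regions. Of these, 5820 held a peak of all 4 condensin II lists and are called core regions here. A TFIIIC peak of each of the 4 TFIIIC libraries overlapped 1147 core regions, 19.7% (95% exact binomial interval 18.7 to 20.8), and these 1147 are called core sites with TFIIIC. The sites were selected on the condensin II and TFIIIC peaks themselves, so their peaks, scores and widths are described and not tested. Intervals of this kind cover counting error only.

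Condensin II is a ring-shaped complex that folds chromosomes, stays in the nucleus throughout the cell cycle, and binds to many promoters in interphase. CAP-H2 is its kleisin subunit, which closes the ring, and CAP-D3 is a HEAT-repeat subunit that takes part in binding to chromatin. TFIIIC binds internal promoter elements of tRNA genes and other RNA polymerase III genes and also occupies many sites without the polymerase. The retinoblastoma protein pRb binds many chromatin proteins through a cleft that recognises the LXCXE motif.

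The study used C57BL/6 embryonic fibroblasts, primary cells taken from E13.5 embryos and harvested while cycling at passage 4, and by its title it was about pRb bringing condensin II to promoters. The peak lists hold no measure of cell type markers, so the labelled cell type could not be checked. Wild-type cells (WT) were compared with Rb1L/L cells, in which both copies of Rb1 are the L allele, a change in the LXCXE-binding cleft. CAP-D3 and CAP-H2 had 1 library per genotype, TFIIIC (antibody to its largest subunit) and H3K27me3, the mark of Polycomb repression, had 2 per genotype, and the 8 other samples of 20 were inputs. Cells for condensin II and H3K27me3 were fixed with 2 mM EGS followed by 1% formaldehyde and those for TFIIIC with 1% formaldehyde alone. Whether replicates came from different cultures is not given, so a p-value here covers the spread between libraries only, and that spread may be technical.

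The lists held 13233 to 17576 CAP-D3 peaks, 42737 to 43151 CAP-H2 peaks, 200350 to 301874 TFIIIC peaks and 24741 to 56396 H3K27me3 peaks, and the number of reads behind each is unknown. Each peak has the authors' score, which ranks peaks within 1 list and depends on read depth. Scores are given below as percentiles within a list, where 50 is the middle of the list. Scores of 3100 recur many times within a list and share 1 percentile. A percentile from a list of 200350 peaks and one from a list of 301874 are not the same height of signal, so percentiles are not read as a change between genotypes on their own. With 1 library per genotype, condensin II has no replicate check. No gene, promoter or sequence is named for a region, because positions are in the mm9 build and no mm9 annotation or sequence was used here.

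TFIIIC was found at a larger share of core regions than of condensin II regions in general. Of all 60899 condensin II regions 8.79% had TFIIIC in all 4 libraries, and of the 55079 outside the core 7.64% did. Core regions join peaks of all 4 condensin II lists, and their widths were not compared with those outside the core. Within the core the share went with width, and it was 7.77% in the narrowest of 4 width classes. The part of width in the larger share of the core was not tested. Core regions split into 1737 without any TFIIIC peak, 1201 with a peak in 1 library, 945 in 2, 790 in 3 and 1147 in all 4. Among the mixed classes, 498 (8.56% of core regions) had both WT libraries and no Rb1L/L library, where the share over all condensin II regions was 2.05%. Both Rb1L/L libraries and no WT library were found at 44 (0.76%), where that share was 2.08%. Core regions with 3 libraries lacked an Rb1L/L library more often than a WT library, with 315 lacking Rb1L/L replicate 2, 227 lacking Rb1L/L replicate 1, 131 lacking WT replicate 1 and 117 lacking WT replicate 2. These are 5.41%, 3.90%, 2.25% and 2.01% of core regions, and over all condensin II regions the same classes made up 1.43%, 1.34%, 2.96% and 1.77%.

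**Figure D1:**
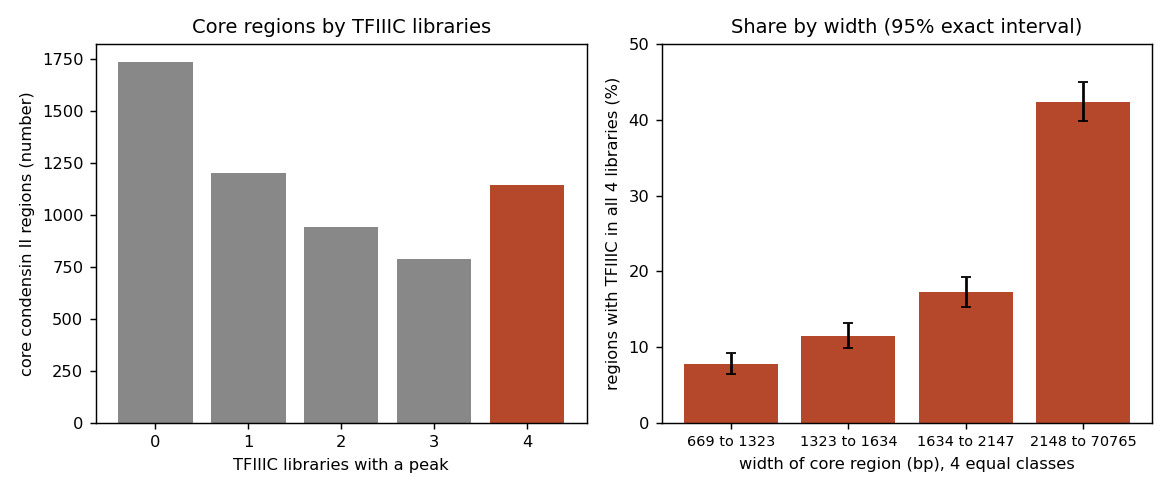
The left plot shows the number of core condensin II regions by how many of the 4 TFIIIC libraries have a peak there, with the 1147 of all 4 in red. The right plot shows the percentage of core regions with TFIIIC in all 4 libraries for 4 equal classes of region width in bp, with 95% exact binomial intervals, from 7.77% in the narrowest class to 42.3% in the widest.

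Core sites with TFIIIC were wide. Their median width was 2236 bp (quartiles 1656 and 3536 bp), against 1834 bp with 3 TFIIIC libraries and 1414 bp (1192 to 1724 bp) without TFIIIC. Sites over 5 kb numbered 192 (16.7%), while 6 of the 1737 core regions without TFIIIC (0.35%) were that wide. The share of core regions with TFIIIC in all 4 libraries was larger in wider classes, as the plot by width class shows, at 7.77% (95% exact interval 6.44 to 9.26) up to 1323 bp, 11.5% from 1323 to 1634 bp, 17.3% from 1634 to 2147 bp and 42.3% (39.8 to 44.9) from 2148 bp upward. A wider region meets a peak of any list more easily, and the part of width in the result was not tested.

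The widest sites were blocks with several TFIIIC peaks and few condensin II peaks. In the 46 sites over 10 kb the median was 4, 5, 4 and 4 TFIIIC peaks, 2 and 1 CAP-D3 peaks and 2 and 2 CAP-H2 peaks. The widest lay at chr15:77603288-77674052 (70765 bp) and held 4 CAP-D3 peaks in WT and 6 in Rb1L/L, 6 and 11 CAP-H2 peaks, and 35, 35, 23 and 24 TFIIIC peaks in WT replicates 1 and 2 and Rb1L/L replicates 1 and 2. It was followed by chr10:119856821-119915685 (58865 bp), chr6:30999827-31040382 (40556 bp) and chr19:5816856-5851033 (34178 bp). In the last, TFIIIC gave 14 to 16 peaks per library and CAP-H2 the tied score of 3100 in both genotypes, while CAP-D3 stood at percentiles of 55.9 in WT and 17.1 in Rb1L/L. Over all 1147 sites, the median site had 1 peak of each of the 8 lists.

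Of the 19 sites under 1 kb, 14 carried H3K27me3 in at least 1 library, 11 of them in all 4, and 5 had none. The narrowest core site with TFIIIC, chr1:138261044-138261746 (703 bp), had 1 peak in each of the 12 lists. The next, chr1:192944511-192945323 and chr6:113444107-113444929, had H3K27me3 in 4 and 3 libraries, and chr1:124253383-124254209 in 4.

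Both condensin II subunits stood higher in their lists at core sites with TFIIIC than at core regions without it. The median CAP-H2 percentile was 91.3 in WT and 90.5 in Rb1L/L, and 53.1% and 51.4% of sites lay in the top 10% of their CAP-H2 list. In core regions without TFIIIC the medians were 72.9 and 72.3, and 21.8% and 21.4% reached the top 10%. The CAP-D3 medians were 79.5 in WT and 72.2 in Rb1L/L, against 69.6 and 60.4 without TFIIIC. Over the 4 condensin II lists, the median percentile was higher at core sites with TFIIIC than at core regions without it by 14.6 ± 4.39 (SD, n = 4 lists), a description of lists that chose the sites. Each region took its highest-scoring peak. Core sites held 2 or more CAP-D3 peaks in 20.7% (WT) and 15.0% (Rb1L/L), against 4.43% and 2.94% without TFIIIC. For CAP-H2 it was 17.8% and 21.1% against 3.34% and 4.15%. The part of peak number in the percentiles was not tested. Cut into 4 equal classes by CAP-H2 percentile, core regions had TFIIIC in all 4 libraries in 9.90%, 12.7%, 19.8% and 36.4% from the lowest to the highest class, and by CAP-D3 percentile in 15.3%, 18.4%, 19.5% and 25.7%.

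Regions with high CAP-H2 scores were also wide, with a median of 2229 bp in the highest CAP-H2 class and 1333 bp in the lowest, so the classes were crossed. From the lowest to the highest CAP-H2 class, the share was 8.42%, 11.6%, 12.8% and 13.7% in the second width class, larger at each step, and without such an order in the third, at 15.8%, 15.7%, 20.2% and 16.3%. In the narrowest class it was 4.94%, 6.05% and 6.85% in the lower CAP-H2 classes and 44.4% (36 of 81, 95% exact interval 33.4 to 55.9) in the highest. In the widest class it was 39.5%, 25.7%, 31.6% and 52.5%.

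**Figure D2:**
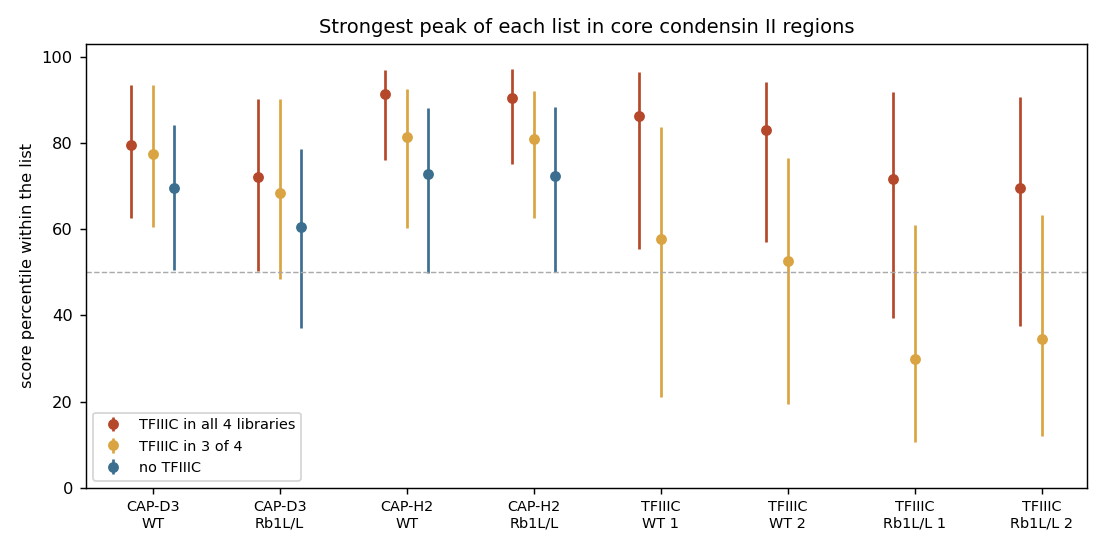
Points give the median percentile of the strongest peak within each deposited list, and bars the quartiles, for core regions with TFIIIC in all 4 libraries (red), in 3 of 4 (yellow) and in none (blue), with a dashed line at the middle of a list. CAP-H2 medians are 91.3 and 90.5 in red and 72.9 and 72.3 in blue, and TFIIIC medians are higher in red than in yellow in each of the 4 libraries.

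TFIIIC at these sites was above the middle of its lists, with a broad spread. The median percentile was 86.3 and 83.0 in WT replicates 1 and 2 and 71.6 and 69.6 in Rb1L/L replicates 1 and 2. The top 10% of the list held 43.2% and 35.7% of sites in WT and 28.9% and 25.9% in Rb1L/L. In core regions with TFIIIC in 3 of 4 libraries, the medians were 57.8 and 52.5 in WT and 29.8 and 34.4 in Rb1L/L, among regions with a peak in that library. TFIIIC peaks at the core sites were also wider than usual, with a median of 1066 and 1112 bp in WT and 1053 and 1004 bp in Rb1L/L, which is 1.66, 1.64, 1.38 and 1.33 times the median of the list.

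Weak TFIIIC peaks let many sites into the set. The lowest TFIIIC score of the 4 libraries had a median of 194.9 and was under 100 at 176 sites (15.3%), where the lists begin at scores of 50 to 50.2. Just inside the rule, chr2:30836930-30838378 had TFIIIC scores of 96.2 and 211 in WT and 51.4 and 116 in Rb1L/L. The region chr10:128002027-128003917 had 290 and 613 in WT and 52.4 and 488 in Rb1L/L, and chr6:29297226-29299040 had 53.6 and 313 in WT and 101 and 139 in Rb1L/L. Just outside it, a TFIIIC peak of the lacking library lay 2 bp from chr11:59622711-59623829, 3 bp from chr2:167363208-167365257, and 5 bp from chr2:130248877-130251030. Of the 790 core regions with 3 libraries, 348 (44.1%) had a peak of the lacking library within 1 kb. The same share was not counted for other core regions. TFIIIC peaks covered 12.5% to 21.8%, by library, of the flanks from 5 to 50 kb around all core regions.

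TFIIIC was shared by the 4 libraries at the level of the site, and less often at the level of the base. A base common to all 4 condensin II lists was present in 1100 of the 1147 sites (95.9%), over a median of 831 bp. A base common to all 4 TFIIIC lists was present in 976 (85.1%, over a median of 562 bp), so that at 171 sites the libraries had TFIIIC at different bases. At 83 sites no single merged TFIIIC region had peaks of all 4 libraries. All 8 lists had a base in common at 571 sites (49.8%, 95% exact interval 46.8 to 52.7), over a median of 332 bp. TFIIIC peaks covered a median of 46.0% and 45.3% of the site in WT and 39.5% and 37.3% in Rb1L/L, and at 576 sites no base lay under peaks of all 8 lists.

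The strongest TFIIIC peak was usually centred away from the strongest condensin II peak. The midpoints of the CAP-D3 peaks of the 2 genotypes were a median of 94.5 bp apart and those of the CAP-H2 peaks 154 bp. CAP-D3 and CAP-H2 midpoints were 305 bp apart in WT and 298 bp in Rb1L/L. From CAP-H2 to TFIIIC the medians were 596 and 686 bp in WT and 811 and 816 bp in Rb1L/L, and from CAP-D3 to TFIIIC 660 and 711 bp in WT and 869 and 904 bp in Rb1L/L. The TFIIIC midpoint was within 200 bp of the CAP-H2 midpoint at 18.9% and 16.6% of sites in WT and at 13.7% and 12.8% in Rb1L/L.

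Scores of the same subunit ranked the sites alike in both genotypes, and scores of different proteins hardly did. Across the 1147 sites, which share libraries and inputs, Spearman's rho was 0.91 between the CAP-H2 lists, 0.89 between the CAP-D3 lists, 0.52 between the WT TFIIIC libraries and 0.71 between the Rb1L/L ones. It was 0.20 and 0.20 between CAP-H2 and TFIIIC in WT and 0.21 and 0.19 in Rb1L/L, and between −0.05 and 0.07 for CAP-D3 with TFIIIC or with CAP-H2. The CAP-D3 score was at the recurring value of 3100 or above at 398 sites in WT and 424 in Rb1L/L. The part of such ties in these values was not tested.

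At these sites TFIIIC stood higher in the WT lists than TFIIIC elsewhere, and at a similar or slightly lower place in the Rb1L/L lists. TFIIIC peaks of the 4 libraries were merged, and the 75732 regions with a peak in all 4 were compared, of which 1277 lay at a core site. Both Rb1L/L percentiles were below both WT percentiles in 433 of the 1277 (33.9%, 95% exact interval 31.3 to 36.6), where the share over all 75732 regions was 11.6%. The opposite order, both Rb1L/L above both WT, was seen in 207 (16.2%, 14.2 to 18.3), where it was 27.1% over all regions. The median percentile at core sites was 87.5 and 85.0 in WT and 76.1 and 73.1 in Rb1L/L, whereas over all regions of 4 libraries it was 67.9 and 72.5 in WT and 78.6 and 78.4 in Rb1L/L. With the deposited scores in place of percentiles, the shares at core sites were 19.9% with Rb1L/L lower and 22.4% with Rb1L/L higher, against 4.62% and 34.5% over all regions.

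The same order was not seen where CAP-H2 was present without CAP-D3. Of 2676 TFIIIC regions at CAP-H2 of both genotypes and no CAP-D3 peak, 11.2% had both Rb1L/L percentiles lower and 29.5% both higher, and of 68740 TFIIIC regions without any condensin II peak the shares were 11.1% and 27.2%. The TFIIIC regions at core sites were put in 4 classes by mean percentile, cut at the quartiles of all regions. From the lowest to the highest class, both Rb1L/L were lower in 28.9%, 38.2%, 41.3% and 30.7%, and over all regions in 13.55%, 10.87%, 9.63% and 12.4%. No test between genotypes was made, since TFIIIC peaks chose the sites and each genotype has 2 libraries.

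**Figure D3:**
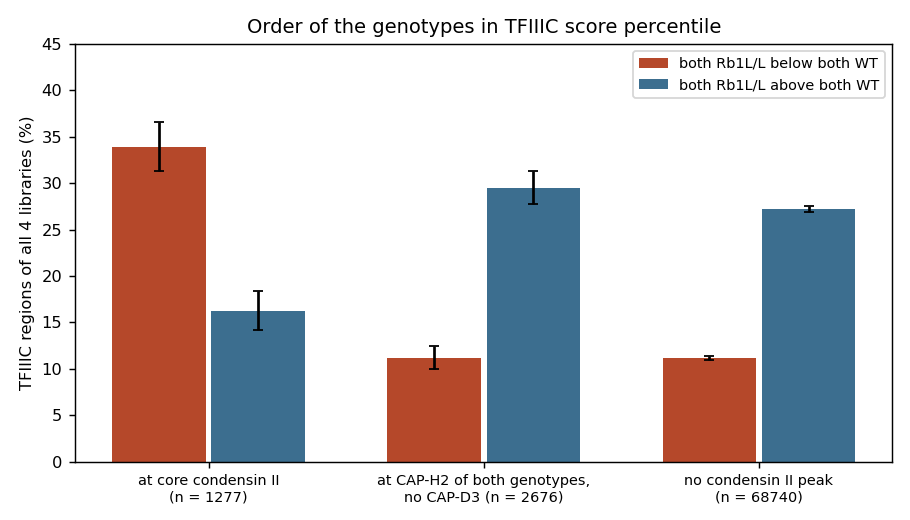
Bars give the percentage of TFIIIC regions of all 4 libraries in which both Rb1L/L libraries had a lower (red) or a higher (blue) score percentile than both WT libraries, with 95% exact binomial intervals, for regions at core condensin II sites, at CAP-H2 without CAP-D3, and without condensin II. The red bar is 33.9% at core sites and 11.2% and 11.1% in the other groups.

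H3K27me3 was not used to choose the sites, and most of them had none, as was true of an even larger share of other core regions. Of the 1147 core sites with TFIIIC, 919 (80.1%) had no H3K27me3 peak in any library, 123 had one in 1 library, 24 in 2, 12 in 3 and 69 in all 4 (6.02%). The sites with 1, 2 and 3 libraries made up 10.7%, 2.09% and 1.05%. In core regions without TFIIIC, 20 of 1737 (1.15%) had all 4. There, 4.61% had a peak in 1 library, 1.15% in 2, 1.09% in 3 and 92.0% in none. Over all core regions 89.9% had none. By library, the share of core sites with an H3K27me3 peak was 8.02% and 9.59% in WT replicates 1 and 2 and 14.8% and 9.68% in Rb1L/L replicates 1 and 2. Over all 60899 condensin II regions the share was 2.05% and 2.9% in WT and 3.48% and 3.16% in Rb1L/L. The share over all 5820 core regions was 3.04% and 4.28% in WT and 6.92% and 4.4% in Rb1L/L, and in core regions without TFIIIC 2.19%, 3.63%, 4.95% and 4.03% in the same order.

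Core sites with TFIIIC had H3K27me3 more often than core regions without TFIIIC in 4 of 4 libraries, by 6.83 ± 2.03 percentage points (SD, n = 4, two-sided exact sign-flip permutation p = 0.125, the smallest that 4 libraries allow). Regions with H3K27me3 in all 4 libraries numbered 69 in the first set and 20 in the second. With these left out of both sets, a choice made after seeing the data that uses H3K27me3 itself and is therefore a description, the difference was 1.09, 1.30, 5.53 and 0.98 percentage points in WT 1, WT 2, Rb1L/L 1 and Rb1L/L 2, a mean of 2.22. The difference also changed with width. In the narrowest width class, 38.9%, 39.8%, 40.7% and 37.2% of the 113 core sites had H3K27me3 in the 4 libraries, against 2.27%, 3.41%, 4.26% and 3.69% without TFIIIC. The second class had 7.78%, 7.78%, 10.2% and 7.19% against 1.56%, 2.73%, 3.90% and 2.73%. In the third class the order turned, with 2.79%, 3.59%, 5.98% and 2.39% against 2.92%, 5.85%, 7.02% and 6.73%. The widest class, with 616 core sites, had 4.55%, 6.98%, 14.9% and 8.28% against 2.25%, 2.81%, 6.74% and 3.93%.

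The sites with H3K27me3 in every library were mostly narrow, with high median percentiles of CAP-H2 and TFIIIC. All 69 thus had a peak in each of the 12 lists, that is, with every antibody. Whether the signal at them depended on the antibody was not tested. Of these 69, 51 were at most 1500 bp wide and 9 were over 5 kb, and they were spread over 19 chromosomes. Their H3K27me3 peaks covered a median of 67.3% to 78.7% of the site and stood at median percentiles of 95.1 and 91.0 in WT and 95.5 and 93.2 in Rb1L/L. Their TFIIIC medians were 98.6 and 97.7 in WT and 91.0 and 89.4 in Rb1L/L, against 82.4 and 79.6 and 67.1 and 66.0 at the 919 sites without H3K27me3. CAP-H2 was at 97.3 and 97.1 against 88.4 and 88.2, while CAP-D3 differed little, at 78.1 and 77.1 against 79.6 and 72.2. The medians of the 69 sites were thus above the middle of every list. They differed from the medians of the 919 more in CAP-H2 and TFIIIC than in CAP-D3. Single sites of the 69 could lie far below the middle. The block chr10:119856821-119915685 had H3K27me3 at percentiles of 1.66 and 6.62 in WT and 5.50 and 3.26 in Rb1L/L.

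**Figure D4:**
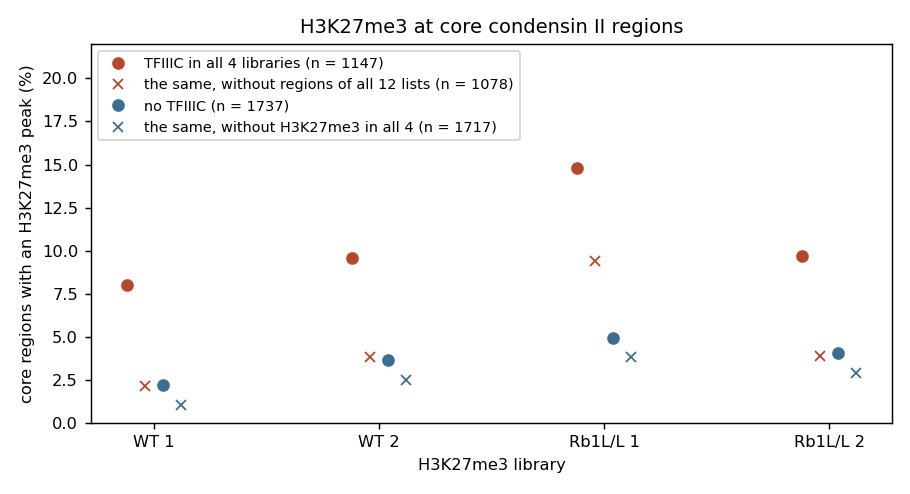
Points give the percentage of core regions with an H3K27me3 peak in each of the 4 libraries, for core sites with TFIIIC in all 4 libraries (red) and core regions without TFIIIC (blue). Crosses leave out the regions with H3K27me3 in every library, which brings the red value of WT 1 from 8.02% to 2.13% and that of Rb1L/L 1 from 14.8% to 9.37%.

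Among the strongest core sites by the lowest percentile of the 8 lists, several were of this kind. The regions chr9:56070868-56072279, chr3:5859791-5861307, chr16:11143539-11144909 and chr17:39979419-39986248 had scores of 3100 or more in all 12 lists, and no other site did. The region chr10:80644255-80648135 had the score of 3100 in all 8 condensin II and TFIIIC lists, and H3K27me3 in WT replicate 2 (score 79.9) and Rb1L/L replicate 1 (282) only. The region chr15:76018505-76031199 (12695 bp) had 3100 in 7 of the 8 lists and 1594 in TFIIIC WT replicate 1, with 9, 5, 5 and 3 TFIIIC peaks.

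The leading H3K27me3 sites also included neighbours on chromosome 1 with unlike TFIIIC libraries. From 173000251 to 173005321, H3K27me3 scored 3100 in all 4 libraries and TFIIIC 704 and 1582 in WT and 283 and 1684 in Rb1L/L. From 173008857 to 173012509, H3K27me3 again scored 3100 throughout, and TFIIIC 150 and 3095 in WT and 388 and 3132 in Rb1L/L. In both sites the libraries numbered 2 were above those numbered 1 in either genotype. The region chr11:108872502-108873934 had the score of 3100 in both CAP-D3, both CAP-H2 and all 4 H3K27me3 lists, and TFIIIC scores of 3100 and 3100 in WT and 2041 and 1409 in Rb1L/L.

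H3K27me3 at core sites with TFIIIC was 8.81 ± 1.11% in WT and 12.2 ± 3.64% in Rb1L/L (SD, n = 2), a difference of 3.44 percentage points with both Rb1L/L libraries above both WT libraries (two-sided exact permutation p = 0.333, the smallest that 2 against 2 libraries allow). The size depended on Rb1L/L replicate 1. The difference was 0.87 without Rb1L/L replicate 1 and 6.02 without Rb1L/L replicate 2, and −0.35 with equal numbers of top-scoring H3K27me3 peaks. By the labels, Rb1L/L replicate 1 and WT replicate 2 share an input with the condensin II libraries of their genotype. Between these 2 libraries the share went from 9.59% to 14.8%, and between those with an input of their own from 8.02% to 9.68%. Rb1L/L replicate 1 alone had a peak at 70 sites (6.10%). WT replicates 1 and 2 and Rb1L/L replicate 2 alone had one at 10, 22 and 21 (0.87%, 1.92% and 1.83%). Rb1L/L replicate 1 also led in core regions without TFIIIC, at 1.96% against 0.23%, 1.04% and 1.38%. The peaks at the 70 core sites were weak, at a median percentile of 7.00, in sites of a median width of 4155 bp. The part of the shared input was not tested.

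Core sites with TFIIIC lay in parts of the genome rich in condensin II and TFIIIC peaks. In the flanks from 5 to 50 kb on either side, TFIIIC peaks covered 16.7% and 21.7% in WT and 28.8% and 28.9% in Rb1L/L. Around core regions without TFIIIC it was 9.18%, 11.5%, 15.9% and 15.97%, and over the chromosomes as a whole 5.95%, 7.51%, 10.6% and 10.8%. CAP-H2 covered 7.27% and 7.11% of the same flanks, against 3.79% and 3.68% around core regions without TFIIIC. The next core region was a median of 39.0 kb away, against 83.5 kb for core regions without TFIIIC, and it was within 10 kb for 262 sites (22.8%) and 177 regions (10.2%). A locally denser TFIIIC list meets any region more often, and the part of local density in the choice of sites was not tested.

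The sites were found on all of chromosomes 1 to 19, unevenly. Chromosome 11 had 110 and chromosome 17 had 93, 0.90 and 0.98 per Mb. Of the core regions of chromosome 17, 31.6% had TFIIIC in all 4 libraries (95% exact interval 26.4 to 37.3), and of those of chromosome 3, 11.3% (8.09 to 15.3). Across the 19 chromosomes this share went with the part of the chromosome under TFIIIC peaks, at 11.4% for chromosome 17 and 6.01% for chromosome 3 (Spearman's rho 0.72, a description of points that share the 4 libraries).

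Most core sites stood alone, but 1 run of neighbours held 10 sites. With sites closer than 10 kb joined, 995 were single, 55 pairs and 9 runs of 3 were found, 1 run had 5 sites and 1 had 10. The run of 10 covered 33.6 kb at chr4:88418880-88452481. Its sites were alike in width, 1292 to 1594 bp, and started 2603 to 5964 bp apart, with a median step of 3061 bp. TFIIIC peaks followed a similar step there, with median distances of 2825 and 2992 bp between the midpoints of neighbouring peaks in WT and 2838 and 2842 bp in Rb1L/L. The nearest TFIIIC midpoint was a median of 734 and 907 bp from the midpoint of the site in WT and 995 and 1010 bp in Rb1L/L. In Rb1L/L replicate 1 the smallest of these distances was 841 bp. No site of the run was wider than 1594 bp, so in that library the TFIIIC midpoints fell outside all 10 sites.

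TFIIIC scores in this run differed by library within a genotype. The score ranged from 73.0 to 500 in WT replicate 1 (median 212), from 541 to 2185 in WT replicate 2 (median 1377), from 325 to 1195 in Rb1L/L replicate 1 (median 704) and from 999.8 to 1688 in Rb1L/L replicate 2 (median 1260). Replicate 2 was above replicate 1 at 10 of 10 sites in either genotype. CAP-D3 scored 437 to 1246 in WT and 927 to 1746 in Rb1L/L, higher in Rb1L/L at 9 of 10 sites, and CAP-H2 scored 113 to 280 and 179 to 512, higher in Rb1L/L at 8 of 10. Scores of single libraries with unknown depth do not measure a difference between genotypes or between replicates. None of the 10 sites had H3K27me3 in any library.

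**Figure D5:**
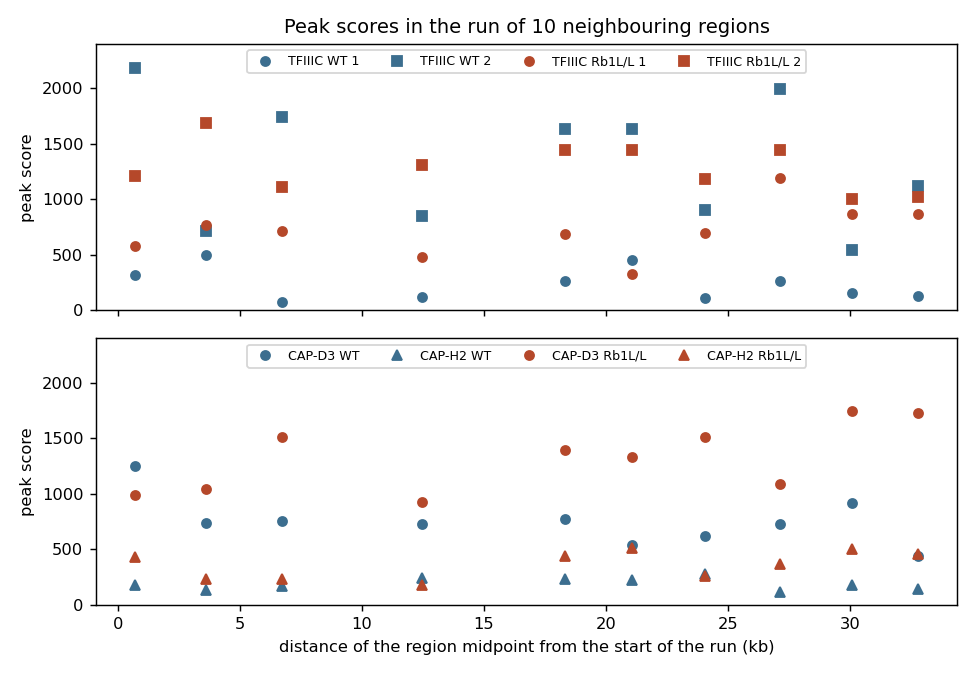
Scores of the strongest TFIIIC peak (upper plot) and condensin II peak (lower plot) of each library are shown for the 10 neighbouring core sites on chromosome 4, against the distance of the site's midpoint from the start of the run in kb. In score, squares (TFIIIC replicate 2) lie above circles of the same colour (replicate 1) at all 10 sites. CAP-D3 scores (circles, lower plot) lie above CAP-H2 scores (triangles) of the same genotype at all 10. Scores of different lists do not share a scale, and percentiles give another order at some sites. CAP-H2 was above CAP-D3 at chr4:88442238-88443681 in WT (73.9 and 63.6) and chr4:88418880-88420265 in Rb1L/L (76.2 and 58.1).

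The run of 5 sites, at chr6:47686953-47728934, was of another kind. Its sites were 1260 to 17809 bp wide, CAP-D3 was weak (percentiles of 1.20 to 44.9 in WT and 0.97 to 10.1 in Rb1L/L) and CAP-H2 stronger (73.1 to 90.3 and 70.1 to 92.3). All 5 had H3K27me3 in at least 1 library and 3 had it in all 4. The TFIIIC score reached 3100 in both Rb1L/L libraries at the 2 widest sites, where it was 1006 and 1124 in WT replicate 1 and 1779 and 2189 in WT replicate 2. Another site of chromosome 1 beside the pair named above made a run of 3, from 172993677 to 173012509, with H3K27me3 in all 4 libraries at each.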

How the data were processed

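The 12 deposited peak lists were analysed, 1 per immunoprecipitated library. The submitters' processing notes name Bowtie2 2.3.0, the mm9 build and MACS 1.4.0rc2, without settings or order. Read depth is unknown, so precision is limited by the number of libraries. Each line holds a position and a score that the authors deposited without a column name. The score was turned into a percentile within each list (chromosomes 1 to 19, ties at their mean rank), and a region took the highest-scoring peak of a list. Overlaps needed 1 bp. Positions are 1-based mm9 coordinates. Groups came from the sample titles.

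Shares of H3K27me3 were compared over libraries with exact permutation tests (threshold 0.05). The members, lists and tests were chosen with earlier results of these data known. Regions are named by rules: the 6 strongest, the widest and narrowest 4, the 6 leading H3K27me3 sites, the 3 just inside and outside the choice, and the longest runs. Alternatives were a higher minimum score, other overlap and gap rules, equal numbers of peaks, width classes, each replicate left out, and a replicate block. Overlap code was tested on simulated intervals. Python 3.11.15, numpy 2.4.6, pandas 2.3.3 and scipy 1.17.1 were used. Reference tables of another build, GRCm38, were not used, and the pairing check is given with the limits.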

Additional observations from a re-analysis of the deposited data

How the results depend on the processing

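The number of core sites with TFIIIC was 895 to 1462 under 7 alternatives, among them 1264 to 1462 when a TFIIIC library was left out of the rule, and it was 163 when TFIIIC had to cover at least 50% of the region and 732 with equal numbers of TFIIIC peaks. The width ratio to core regions without TFIIIC was 1.58, and it was 2.00 with gaps of up to 1 kb joined and 1.24 with 50% cover. The mean excess of H3K27me3 at core sites kept its sign under 19 alternatives and was −1.94 percentage points in the third width class. It was 35.8 in the narrowest class, 35.3 with TFIIIC over 50%, 11.0 with equal TFIIIC numbers, 4.18 with H3K27me3 over 50% and 4.43 with equal H3K27me3 numbers. The smallest of the 19 was 1.10, without regions of all 12 lists (two-sided exact sign-flip permutation p = 0.625). Core regions without TFIIIC cannot be in all 12 lists, so this choice took regions with H3K27me3 from the core sites only. It therefore cannot decide whether the excess remains. With regions of H3K27me3 in all 4 libraries left out of both sets, the excess was 2.22. The genotype difference in H3K27me3 was −0.35 with equal numbers of H3K27me3 peaks, −0.44 in the narrowest width class and 0.17 with H3K27me3 over 50%, and it ranged from 0.87 to 6.02 with 1 library left out. The cause of these changes was not tested. The median condensin II percentile excess stayed at 12.6 to 15.8. The share of TFIIIC regions with Rb1L/L lower was 37.3% with equal numbers of TFIIIC peaks (16.7% over all regions) and 19.9% with scores, alternatives chosen after seeing the data. Replicate numbers did not pair the H3K27me3 libraries (correlation of deviations 0.06 over 5820 core regions). With a replicate block the genotype difference was 3.44 (exact permutation p = 0.5, the smallest that such a block allows). Read depth is unknown and limits every comparison between lists.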

Other observations

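Chromosome X was outside the choice of sites. It held 32 regions with a peak in all 4 condensin II lists, of which 4 had TFIIIC in all 4 libraries and 14 in none, and 3 of these 4 had a peak in all 12 lists. Unplaced and Y sequences held no region with all 4 condensin II lists.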
